A study of Mus musculus with 182 samples.

Results

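The B cell receptor complex and its first signalling enzymes were followed as 9 genes in single germinal centre B cells. The genes were Cd79a and Cd79b, which encode the signalling chains of the receptor, the kinases Lyn, Syk and Btk, the adaptor Blnk, the lipase Plcg2, and the brakes Cd22 and Ptpn6. They were chosen by symbol from the deposited table of normalized values, in which all 9 were found among 17034 gene symbols. Their values were read in all 182 cells.

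The cells came from the spleens of C57BL/6 mice, taken on day 13 after an intraperitoneal injection of NP(23)-KLH (100 μg) in 50% alum together with 1 μg LPS. NP is a small hapten, KLH the carrier protein it is coupled to, and alum and LPS are adjuvants. Cells bearing CD3, CD4, CD8, CD11c or IgD had been removed on magnetic columns, and B220+ Fas hi GL7 hi cells were sorted, described in the sample labels as NP+ and in the series' design text without an NP gate. Each cell was captured on the Fluidigm C1 system and gave 1 library made with SMARTer and Nextera XT chemistry, and all came from mice given the same injection. No animal is named for any cell, so they count as 1 biological sample and no test between groups of cells was possible; differences below are descriptions of these cells.

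When antigen binds a B cell receptor, the kinase Lyn phosphorylates paired tyrosines in the tails of CD79A and CD79B, a motif called an ITAM, and Syk docks there. Syk then phosphorylates the adaptor BLNK, which brings together BTK and phospholipase C gamma 2, whose products release calcium and activate protein kinase C. Lyn also phosphorylates single tyrosines in the tail of the sialic acid receptor CD22, motifs called ITIMs, to which the phosphatase SHP-1, the product of Ptpn6, binds and from which it counters the kinases. Germinal centre B cells are known for muted signalling through this receptor, and they move between a dark zone, where they divide and mutate their antibody genes, and a light zone, where they meet antigen and T cells.

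The coding sequences of the docking motifs show where the activating and restraining arms of this pathway begin. They were read from GENCODE transcripts on GRCm38, the same build as mm10, 5′ to 3′ on the coding strand. In the 2 ITAM lines the capitals mark the codons of the tyrosines and of the leucine or isoleucine that follows each of them after 2 residues. The Cd79a motif covers codons 182 to 196 of 220 and lies at chr7:24901296-24901469 on the plus strand, and the Cd79b motif covers codons 255 to 269 of 288 and lies at chr11:106311867-106312012 on the minus strand; each is split by an intron, so its 45 bases are printed as spliced.
Cd79a ITAM: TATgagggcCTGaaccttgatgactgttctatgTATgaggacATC
Cd79b ITAM: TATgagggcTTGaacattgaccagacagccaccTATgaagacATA
Both chains carried the motif once, and none of the other 7 genes had a match. The pattern searched was tyrosine, 2 residues, leucine or isoleucine, 6 to 8 residues, then the same group again, read in the coding frame, and 634 of 21875 genes (2.90%) had a match, so the pattern alone does not define a receptor chain.

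For Cd22 the capitals mark the tyrosine codon in the 3 matches to the ITIM pattern within its tail, all on the minus strand and each within 1 exon. They lie at chr7:30867494-30867511, chr7:30866600-30866617 and chr7:30866540-30866557, and cover codons 781 to 786, 841 to 846 and 861 to 866 of 868.
Cd22 ITIM at codon 781: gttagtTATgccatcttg
Cd22 ITIM at codon 841: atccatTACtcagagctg
Cd22 ITIM at codon 861: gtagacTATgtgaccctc
The pattern was isoleucine, leucine, valine or serine, 1 residue, tyrosine, 2 residues, then leucine or valine. It is short, and 9073 of 21875 genes (41.5%) had at least 1 match, among them Cd79a, Lyn and Plcg2 with 1 match each. Another match in Cd22 lay in its first codons, 3 to 8. Ptpn6, Syk, Btk, Blnk and Cd79b had none.

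The deposited values were normalized by the authors and are not on a log scale. How they were scaled, and whether by gene length, is not given in the sources used here, so levels are compared between cells and not between genes. Detection of a gene means a value of 1 or more in that cell, and the range after each share is its exact Clopper-Pearson 95% interval, for counting error only. The values fell into 2 sets of columns, cells 1 to 96 (set 1, 96 cells) and cells 97 to 182 (set 2, 86 cells), each with its own lowest value per gene, called its floor. Of genes above 0 in both cells of a pair, 73.0% or more had equal values in 45 pairs from the same set and 0% in 41 pairs from different sets, so the sets were kept apart, and a relation or difference was called only where both sets showed it. Whether they are capture runs, animals or steps of processing is unknown. The median cell had 1904 genes detected in set 1 (1873 to 1946) and 1690 in set 2 (995 to 1741). Genes above the floor ran more widely, from 1904 to 4495 in set 1 and from 980 to 5149 in set 2. How far the authors' scaling sets the number of genes detected was not tested. The sequencing depth is unknown, and cell 122 stood apart with a summed value of 3443763 against a median of 362544. B cell markers fitted the label, with Ms4a1, Cd74 and Ebf1 detected in over 50% of cells and Pax5 in 33.5%. Of the germinal centre markers, Bcl6, Mef2b and Mybl1 were also detected in over 50% of cells, but S1pr2 was in 45.1%, Gcsam in 34.1% and Fas, whose protein was used in the sort, in 50.0%. Of the listed markers of T, myeloid, NK and erythroid cells, only 19 had values. Cd3d and Cd4 were in 0 cells, none of the 19 was in more than 8.24% of cells, and 117 cells had none.

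All 9 genes of the complex were detected in over 50% of cells, a mark that 3.79% of all 17034 genes passed. The median share was 83.0% over the 9 genes and 3.85% over all genes. The 2 signalling chains were near the top. Cd79b (chr11:106311341-106314762, minus strand) was detected in 180 of 182 cells (98.9%, 96.1 to 99.9). Its floor in set 2 was 1.29, above the detection value, so all 86 cells of that set counted as detected, of which 85 were above the floor. Cd79a (chr7:24897381-24902197, plus strand), its partner in the receptor, was detected in 167 cells (91.8%, 86.8 to 95.3).

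The kinases spread more widely. Syk (chr13:52583173-52648792, plus strand), which binds the phosphorylated ITAMs, was detected in 139 cells (76.4%, 69.5 to 82.3). Lyn (chr4:3678115-3813122, plus strand), which starts the phosphorylation, was detected in 124 cells (68.1%, 60.8 to 74.8). Btk (chrX:134542336-134583570, minus strand), the kinase that activates the lipase, was detected in 94 cells (51.6%, 44.1 to 59.1). The adaptor Blnk (chr19:40928927-40994535, minus strand) was detected in 151 cells (83.0%, 76.7 to 88.1), and its effector Plcg2 (chr8:117498291-117635142, plus strand) in 92 cells (50.5%, 43.1 to 58.0), the lowest share of the 9. Plcg2 and Btk therefore stood just inside 50%, and their intervals reach below it.

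Both brakes were detected in about as many cells as the receptor chains. Ptpn6 (chr6:124720707-124738714, minus strand) was detected in 172 cells (94.5%, 90.1 to 97.3) and Cd22 (chr7:30865402-30880342, minus strand) in 165 cells (90.7%, 85.5 to 94.5). Antisense genes overlap both, Gm20531 over 5873 bases of Ptpn6 and Gm29439 over 601 bases of Cd22, and short or noncoding genes on the opposite strand overlap Lyn, Btk and Plcg2. Whether strand was used in the authors' counting is not given in the sources used here, so reads within these overlaps cannot be told apart.

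The sets differed most in the less often detected genes. Lyn was in 80.2% of set 1 and 54.7% of set 2, Plcg2 in 58.3% and 41.9%, and Btk in 58.3% and 44.2%. In set 2 alone, 7 of the 9 genes passed 50%, all but Btk and Plcg2, beside 3.01% of all genes, while in set 1 all 9 did, beside 4.64%. At a stricter value of at least 5, 6 of the 9 passed, beside 1.54% of all genes; Lyn was then in 45.6% of cells, Plcg2 in 30.8% and Btk in 30.2%. The sets were closer for Syk (75.0% of set 1 and 77.9% of set 2), Blnk (84.4% and 81.4%), Cd22 (91.7% and 89.5%) and Ptpn6 (94.8% and 94.2%).

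**Figure D1:**
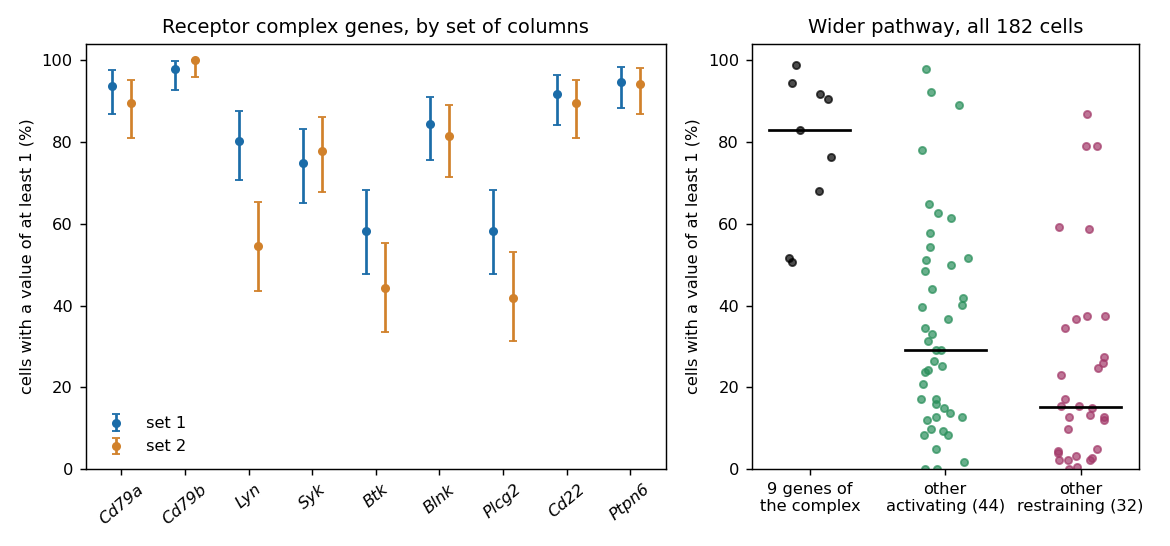
Left, the share of cells (%) with a value of at least 1 for each of the 9 genes in set 1 and set 2, with exact 95% intervals; right, the same share over all 182 cells for the 9 genes and for the other activating and restraining genes of the pathway, 1 point per gene and a line at the median. Btk and Plcg2 sit lowest in both sets, with Lyn next in set 2 but above Syk in set 1. Lyn, Btk and Plcg2 differ most between the sets. The 9 genes (median 83.0%) lie above the medians of the other lists (29.1% and 15.1%).

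Levels of every gene ran over several orders of magnitude from cell to cell. Cd79b had a lowest normalized value of 0.373, a median of 1254 and a highest of 30205, and its medians in the sets were alike, at 1254 and 1260. Cd79a had a lowest value of 0, a median of 96.4 and a highest of 4145, with medians of 132 in set 1 and 64.9 in set 2. Of the pair, Cd79b was the more evenly spread: the top 18 cells held 42.0% of its summed value and 58.3% of that of Cd79a.

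The sums of Lyn, Btk and Plcg2 were carried by few cells, and that of Syk less so, with 69.9% in its top 18 cells. Lyn had a lowest value of 0, a median of 3.23 and a highest of 3374, with medians of 4.48 in set 1 and 1.79 in set 2, and the top 18 cells held 84.0% of its sum. Btk had a lowest value of 0, a median of 1.12 and a highest of 1762, with 80.1% of its sum in 18 cells. Plcg2 had a lowest value of 0, a median of 1.02 and a highest of 3794, with 83.7% in 18 cells. For these 3 genes a typical cell therefore stood close to the detection value, and in set 2 the median cell was at 0.153 for Plcg2, which is its floor there, and at 0.576 for Btk. Syk had a lowest value of 0, a median of 11.3 and a highest of 1950, and was the only one of the 9 besides Cd79b whose median was higher in set 2 (14.3) than in set 1 (9.24). Blnk had a lowest value of 0, a median of 20.9 and a highest of 4047, with medians of 52.4 in set 1 and 12.0 in set 2.

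Both brakes lay well above the detection value in most cells. Cd22 had a lowest value of 0, a median of 54.0 and a highest of 3098, and Ptpn6 a lowest value of 0, a median of 92.0 and a highest of 8357. Their medians were higher in set 1, at 101 against 33.2 in set 2 for Cd22 and 173 against 55.8 for Ptpn6. The top 18 cells held 53.6% of the Cd22 sum and 58.8% of the Ptpn6 sum.

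**Figure D2:**
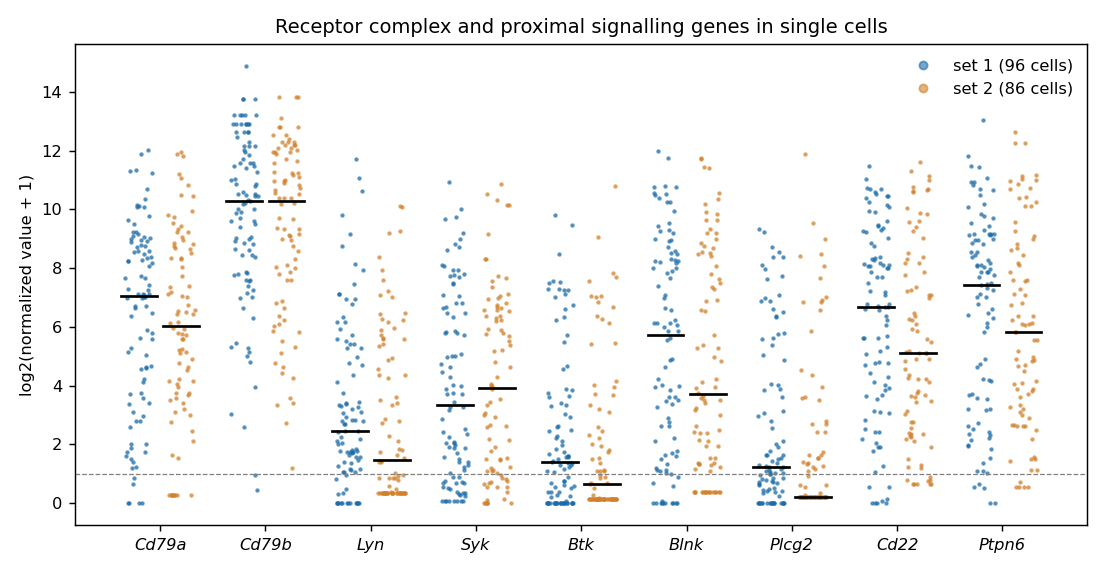
Log2(normalized value + 1) of each of the 9 genes in every cell of set 1 (96 cells) and set 2 (86 cells), with a black line at the median of each set and a dashed line at the detection value of 1. Cells pile up at the floor for Lyn, Btk and Plcg2, while nearly all cells lie high above the dashed line for Cd79b.

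Most cells held most of the complex at a detected level. All 9 genes were detected together in 24 cells, 19 of set 1 and 5 of set 2. A further 54 cells had 8 of them, 44 had 7, 38 had 6 and 16 had 5. Only 6 cells had fewer than 5, and no cell had fewer than 2.

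The kinases and brakes were then set side by side within each cell. All 3 kinases were detected in 57 cells (31.3%, 24.7 to 38.6), and both brakes in 158 cells (86.8%, 81.0 to 91.4). No kinase was detected in 10 cells (5.49%) and neither brake in 3 cells (1.65%). In 105 cells (57.7%, 50.2 to 65.0) both brakes were detected beside fewer than 3 kinases, and in 4 cells (2.20%, 0.602 to 5.53) all 3 kinases beside fewer than both brakes. These shares rest on a fixed detection value, and 3 kinases are harder to detect together than 2 brakes, so they count cells and do not compare amounts of the proteins. Within the sets, both brakes beside fewer than 3 kinases were found in 52.1% of set 1 and 64.0% of set 2.

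A kinase score and a brake score, each the mean z-score of log2(value + 1) over its genes, ranked the cells in weakly similar order, with a Spearman rho of 0.15 over 182 cells, 0.21 in set 1 and 0.06 in set 2. The number of genes above their floor, the nearest measure of depth in these files, went with lower scores of both kinds. Its rho was -0.43 in set 1 and -0.29 in set 2 with the kinase score, and -0.33 and -0.22 with the brake score. With cells ranked within sets and this number taken out as a linear term, the correlation of kinase and brake scores was 0.042. In neither set was the relation of kinases and brakes negative.

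The 9 genes hardly varied together. Over their 36 pairs the median rho was 0.07 in all cells, 0.08 in set 1 and 0.03 in set 2, while all pairs of genes found in 10% of cells or more had medians of 0.04, 0.01 and 0.02. These cells share libraries, chemistry and depth, and the values are given as a description. Cd79a and Cd79b, the 2 chains of the receptor's signalling unit, were the only pair of the 36 with a rho of at least 0.2 in both sets, a mark passed by 0.731% of all gene pairs. Their rho was 0.29 over all cells, 0.23 in set 1 and 0.34 in set 2. Both were detected in 166 cells, where independent detection would give 165. No pair had -0.2 or lower in both sets, which 0.176% of all gene pairs had.

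No other pair reached 0.2 in size in the same direction in both sets. Cd79b with Lyn had a rho of 0.22 over all cells, 0.14 in set 1 and 0.28 in set 2, and Cd79a with Plcg2 had 0.21, 0.17 and 0.24. Btk with its adaptor Blnk had a rho of -0.14 in set 1 and -0.16 in set 2. Several pairs changed sign between the sets, such as Blnk with Cd22 at 0.24 in set 1 and -0.21 in set 2, and Cd79a with Syk at 0.08 and -0.28. Cd22 with Ptpn6, the brake and the phosphatase it recruits, had 0.06 and 0.16.

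**Figure D3:**
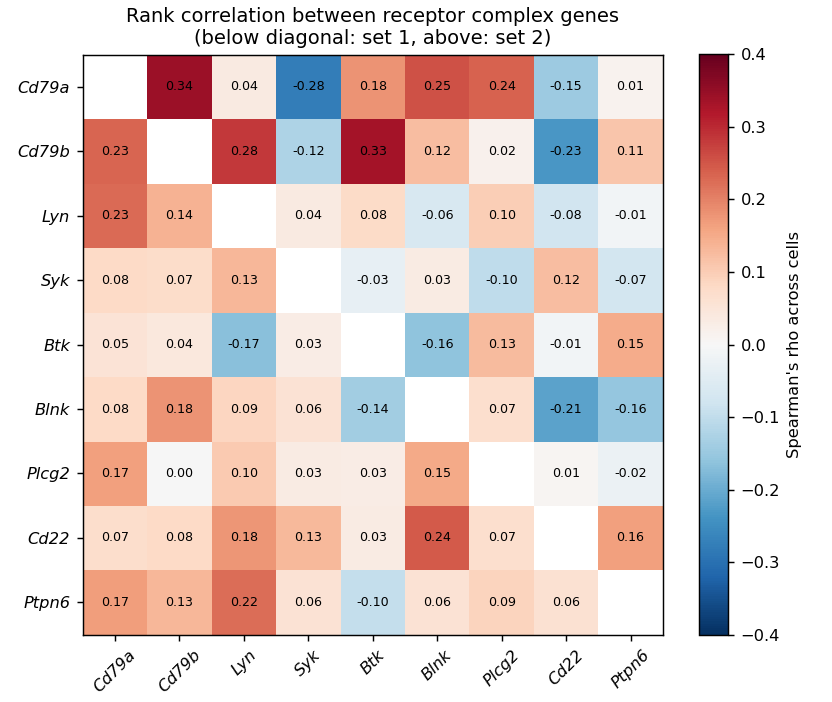
Spearman's rho between each pair of the 9 genes across cells, for set 1 (96 cells) below the diagonal and set 2 (86 cells) above it, on a colour scale of -0.4 to 0.4. Only the square of Cd79a with Cd79b is at 0.2 or more on both sides (0.23 and 0.34).

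The genes with the most similar pattern over cells, ranked by the smaller of their rhos in set 1 and set 2 among 4637 genes, were mostly not of this pathway. For Cd79b they were Ly6d (0.34), a B lineage surface protein, the adhesion receptor gene Cd97 (0.31) and the MHC class I gene H2-D1 (0.29), and Cd79a came 22nd. For Cd79a they were the ribosomal protein gene Rps7 (0.39), the actin-binding Tmsb4x (0.37) and the ferritin chain Fth1 (0.37). For Cd22 they were Prrc2c, Rpsa and Lars2, each at 0.34, and for Ptpn6 the MHC class II chaperone Cd74 (0.26), Sap130 (0.23) and Dock10 (0.22). Lists for the kinases were flatter: Itgal, Msn and Myo5a at 0.21 to 0.23 for Lyn, Ppp6r1, Xrcc1 and Rev1 at 0.21 for Syk, and Trim7, Macf1 and Cox16 at 0.20 to 0.21 for Btk. Blnk was nearest to Kif20a (0.27), Ndufb6 (0.26) and Ahsa1 (0.26), and Plcg2 to Cnot6l (0.25), Coro1c (0.22) and Git2 (0.22). These are the highest values of rankings over 4637 genes, and whether they reflect shared regulation was not tested. For comparison, the 95th percentile of all gene pairs was 0.20 in set 1 and 0.23 in set 2. Detection of the named genes ranged widely. Cd97 was in 17.0% of cells, Cox16 in 18.1%, Sap130 in 18.7% and Rps7 in 22.5%, but Cd74 in 98.9% and Tmsb4x in 100%.

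The relation to the zones of the germinal centre was read first with scores over 20 light zone and 14 dark zone genes. These scores opposed each other only weakly, with a rho of -0.10 over all cells. None of the 9 genes had a rho of 0.2 or more, or of -0.2 or less, in both sets with the light zone score (0.347% and 0.630% of all genes), the dark zone score (0.239% and 0.955%) or their difference (0.195% each way). Ptpn6 came nearest for the light zone, with a rho of 0.28 over all cells, 0.36 in set 1 and 0.17 in set 2, and Cd22 had 0.18, 0.16 and 0.19. Cd22 had nearly the same rho with the dark zone score, at 0.17, 0.12 and 0.20, and Syk had 0.18, 0.16 and 0.18. Lyn had 0.39 with the light zone score in set 1 and -0.03 in set 2. The score of all 9 genes had a rho of 0.02 with the light minus dark zone difference, 0.17 in set 1 and -0.11 in set 2. With the same difference the brake score had 0.10 over all cells, 0.21 in set 1 and -0.006 in set 2. Of the brakes, Ptpn6 had 0.37 in set 1 and 0.02 in set 2, and Cd22 had -0.04 and -0.03.

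Cells were then classed by RNA detection of 2 zone markers, Cd83 for the light zone and Cxcr4 for the dark zone. These classes were added after the data had been seen and do not measure surface protein. The difference between them lay in the brakes. In 53 cells Cd83 was detected without Cxcr4, 33 in set 1 and 20 in set 2, and in 52 cells Cxcr4 was detected without Cd83, 30 in set 1 and 22 in set 2. Ptpn6 had a median of 272 in Cd83-only cells and 27.0 in Cxcr4-only cells, and Cd22 a median of 136 in Cd83-only cells and 15.9 in Cxcr4-only cells. The mean log2(value + 1) was higher in Cd83-only cells by 2.02 for Ptpn6 and by 1.94 for Cd22. The mean of the same difference was 1.98 over the 2 brakes and 0.17 over the 3 kinases.

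Both sets showed the difference in the brakes. In set 1 Ptpn6 had a lowest value of 1.88, a median of 273 and a highest of 2760 in Cd83-only cells, against 0.413, 48.5 and 1943 in Cxcr4-only cells, a mean log2 difference of 1.95. In set 2 it had 0.458, 205 and 4836 in Cd83-only cells, against 0.633, 18.5 and 2293 in Cxcr4-only cells, a mean log2 difference of 2.05. The ranges of the 2 kinds of cell overlapped almost wholly in either set, so that only the bulk of the cells was shifted. For Cd22, set 1 had a lowest value of 0, a median of 253 and a highest of 2070 in Cd83-only cells, against 0.088, 17.3 and 1704 in Cxcr4-only cells, a mean log2 difference of 2.20. In set 2 it had 0.575, 82.1 and 1606 in Cd83-only cells, against 0.575, 14.7 and 2511 in Cxcr4-only cells, a mean log2 difference of 1.47. Detection of Cd22 was alike in set 1, with 93.9% of Cd83-only and 93.3% of Cxcr4-only cells, but not in set 2, with 95.0% and 77.3%. Ptpn6 was detected in 100% of Cd83-only and 93.3% of Cxcr4-only cells of set 1, and in 95.0% and 95.5% of set 2.

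Of the 9 genes, these 2 were higher by at least 0.5 on the log2 scale in both sets, a mark that 5.33% of the 4636 genes detected in at least 10% of each set passed, and none was lower by 0.5 in both, which 5.93% of genes were. Ordered by the smaller of the 2 sets' differences, Ptpn6 was 2nd and Cd22 5th of the 4636 genes. The other 3 of the first 5, named after their values were seen, were Sp140, Srpk3 and Il4i1, of which Il4i1 is on the light zone list.

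The remaining 7 genes gave no such difference in both sets. Lyn had mean log2 differences of 0.70 in set 1 and 0.21 in set 2, Syk of -0.24 and 0.44, and Btk of 0.52 and -0.99. Plcg2 had 1.24 in set 1 and 0.05 in set 2. Blnk had 0.14 and -1.83, and Cd79a 0.04 and -1.30, so that both were lower in Cd83-only cells of set 2 alone. Cd79b had -0.41 and -0.02.

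Cells with both markers or neither placed the brakes further. Among 35 cells with both Cd83 and Cxcr4, Cd22 had a lowest value of 1.81, a median of 161 and a highest of 3098, and Ptpn6 had 0.458, 74.7 and 4836. Among 42 cells with neither, Cd22 had 0, 22.3 and 1528, and Ptpn6 had 0, 64.2 and 8357. In the both-marker cells the Cd22 median was 253 in set 1 and 148 in set 2, and in cells with neither 40.5 and 15.3. The median of Cd22 was thus higher in both kinds of cell with Cd83 than in either kind without it in each set, whereas the Ptpn6 medians of these 2 kinds of cell lay between those of the single-marker cells. With the level of Cd83, Cd22 had a rho of 0.19 in set 1 and 0.30 in set 2, and Ptpn6 had 0.22 and 0.17. Neither was thus at 0.2 or more in both sets. With Cxcr4, Cd22 had -0.12 and 0.21, opposite in sign, and Ptpn6 had -0.18 and -0.15. With Cd86, another gene of the light zone list, Cd22 had 0.23 and 0.11 and Ptpn6 had 0.21 and 0.05. Here too neither reached 0.2 in both sets.

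Cd83-only cells also differed from Cxcr4-only cells in measures of depth and of the cell cycle. They had a median of 2398 genes above the floor, against 2632 in Cxcr4-only cells, and a median cell cycle score of -0.03, against 0.04. With the set, the number of genes above the floor and the cell cycle score as linear terms, the log2 difference was 1.98 for Ptpn6, 1.69 for Cd22, 1.83 for the mean of the brakes and -0.093 for the mean of the kinases. In cells with no marker of another cell type, the mean over the brakes was 1.70.

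**Figure D4:**
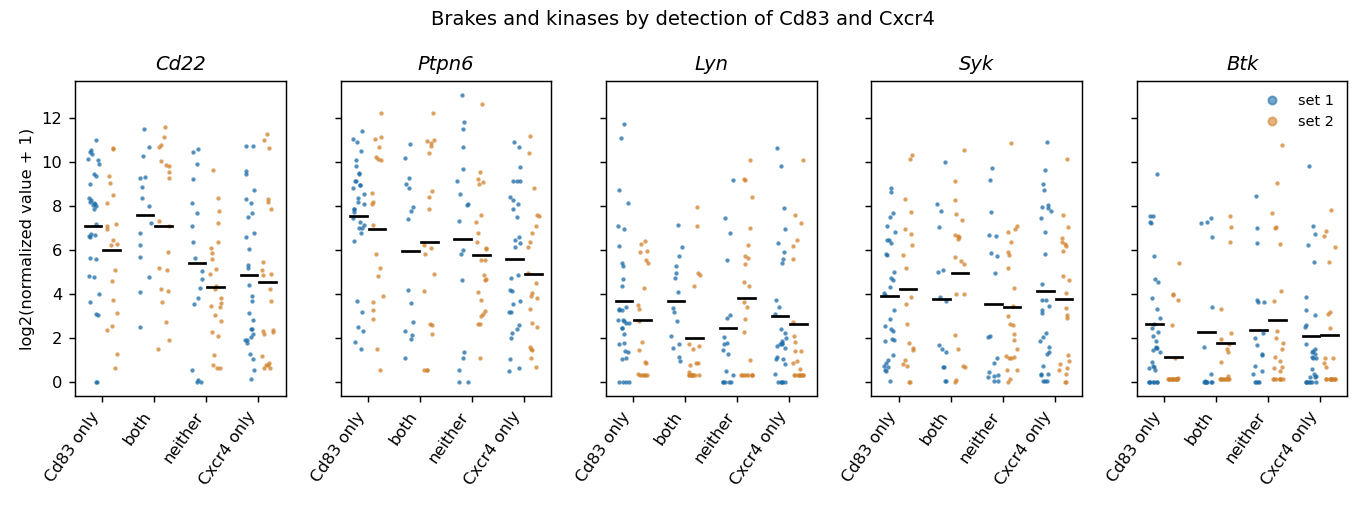
Log2(normalized value + 1) of the brakes Cd22 and Ptpn6 and of the kinases Lyn, Syk and Btk in cells with Cd83 only (53), both markers (35), neither (42) and Cxcr4 only (52), by set, with a black line at each mean. The lines for Cd22 and Ptpn6 stand higher in Cd83-only than in Cxcr4-only cells in both sets, by 1.47 to 2.20, and the points of all classes overlap.

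The wider pathway was set beside the brakes with lists of 44 other activating and 32 other restraining genes in the table. Of 34 activating genes detected in at least 10% of each set, 5 were higher by at least 0.5 in Cd83-only cells of both sets and 0 lower, beside 5.33% and 5.93% of all genes. Among them were the complement receptor Cr2 (1.32 over all cells), the Btk relative Tec (0.98), the lipid kinase subunit Pik3cd (0.70) and the calcium channel gene Itpr2 (0.63). Of 21 restraining genes, 1 was higher and 1 lower, close to the shares of all genes. The higher one was Inpp5d (0.88), which encodes the lipid phosphatase SHIP-1, and the lower one Lax1 (-1.16), an adaptor that dampens lymphocyte signalling. The median difference was 0.28 over the activating and -0.08 over the restraining genes, against -0.03 over all genes.

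By heavy chain, the 9 genes did not part the cells in the same way in both sets. In 41 cells a switched constant gene, Ighg1, Ighg2b, Ighg2c or Ighg3, made up over 50% of the heavy chain sum, and in 123 cells Ighm did. No gene of the 9 was higher by at least 0.5 on the log2 scale in switched than in IgM cells of both sets (4.49% of 4632 genes were), and none lower (4.92%). The mean log2 difference over the 9 genes was -0.19, with -0.44 in set 1 and 0.088 in set 2.

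Single genes leaned one way over all cells without holding in both sets. Lyn had a lowest value of 0, a median of 2.30 and a highest of 606 in switched cells, against 0, 5.87 and 3374 in IgM cells, and its log2 difference was -1.65 in set 1 and 0.16 in set 2. Blnk had 0, 14.4 and 2781 in switched cells, against 0, 29.1 and 4047 in IgM cells, with -1.43 in set 1 and -0.22 in set 2. Both were thus lower in switched cells mainly in set 1. Cd22 had 0.060, 125 and 2873 in switched cells, against 0, 48.4 and 3098 in IgM cells, with 0.16 in set 1 and 1.04 in set 2, and was detected in 97.6% of switched and 88.6% of IgM cells. Syk was detected in 61.0% of switched and 80.5% of IgM cells, 54.2% and 81.5% in set 1, 70.6% and 79.3% in set 2, with log2 differences of -0.12 and -0.75. For the receptor chains the log2 difference was -0.31 in set 1 and 0.24 in set 2 for Cd79a, and -0.28 and -0.03 for Cd79b. Among the other pathway genes, Nck1 was higher (0.57) and Prkcb lower (-0.97) of 34 activating genes by at least 0.5 in both sets.

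**Figure D5:**
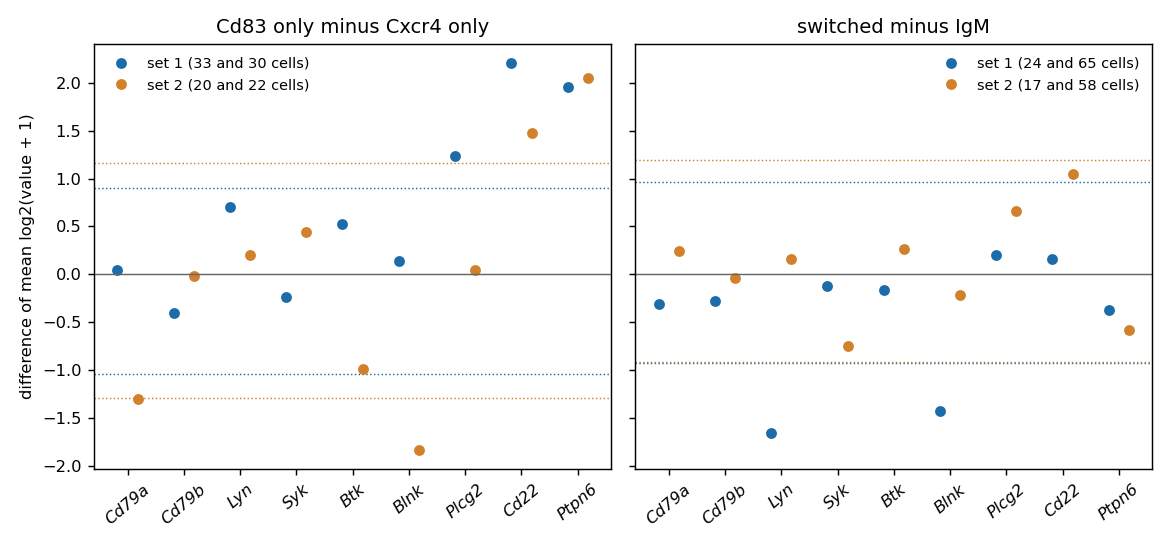
Difference of mean log2(value + 1) for each of the 9 genes, Cd83-only minus Cxcr4-only cells (left) and switched minus IgM cells (right), in set 1 and set 2, with dotted lines at the 5th and 95th percentiles of all genes in each set. Cd22 and Ptpn6 lie above the upper lines in both sets on the left, and no gene lies outside the lines in both sets on the right.

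Over all cells, the summed level of the heavy chain genes went weakly with the receptor's own chains and Lyn. Its rho was 0.24 with Cd79a over all cells, 0.27 in set 1 and 0.20 in set 2, and 0.20 with Cd79b, 0.18 in set 1 and 0.20 in set 2. Cd79a was at 0.199 in set 2 and Cd79b at 0.18 in set 1. Thus 0 of the 9 genes were at 0.2 or more in both sets, beside 0.108% of all genes. With Lyn the rho was 0.19 over all cells, 0.26 in set 1 and 0.13 in set 2. For the other 6 genes it lay between -0.01 and 0.08 over all cells. The listed light chain constant genes had no values under their symbols, so they could not be analysed.

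Cd79b and Ptpn6 were lower in cells with a higher cell cycle score, a mean over 12 genes of DNA copying and mitosis. Cd79b had a rho of -0.35 over all cells, -0.33 in set 1 and -0.38 in set 2, and Ptpn6 had -0.25, -0.24 and -0.31. A rho of -0.2 or less in both sets was found for these 2 of the 9 genes and for 0.713% of all genes, and one of 0.2 or more for 0 of the 9 and 3.93% of all genes. Cd79a had -0.31 in set 1 and -0.18 in set 2, and Lyn -0.33 and -0.16, each passing the mark in set 1 only. Cd22 had -0.17 and 0.08 and Blnk 0.04 and 0.08. The number of genes above the floor had a rho of -0.08 and 0.03 with Cd79b and of -0.08 and -0.09 with Ptpn6 in the sets, whereas with Cd22 it was -0.40 and -0.23 and with Lyn -0.40 and -0.08. The part of depth in these relations was not tested.

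The genes around the complex were detected less widely than the complex itself. Of the 44 other activating genes, 11 were in over 50% of cells, with a median of 29.1%, among them the phosphatase Ptprc (92.3%) that keeps Lyn active, Cd37 (89.0%), Rac2 (78.0%), Bank1 (64.8%), Prkcd (62.6%), Rasgrp3 (61.5%), Tec (57.7%), Lck (54.4%), Blk (51.6%) and Prkcb (51.1%). Lck, best known from T cells, was thus detected about as often as Blk, the Src family kinase of B cells. Cd3d was in 0 cells, but only 6 of 12 listed T cell markers had values, and 23 cells had at least 1 of them. Plcg1, the relative of Plcg2, and Vav3 were in 0 of 182 cells, and the exact interval of each share reached up to 2.01%. Of the 32 other restraining genes, 5 were in over 50% of cells, with a median of 15.1%: Siglecg (86.8%), a CD22 relative, the Lyn-inactivating kinase Csk (79.1%), Dok3 (79.1%), Inpp5d (59.3%) and Cd72 (58.8%). Fcgr2b, the inhibitory Fc receptor, was in 25.8% of cells.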

How the data were processed

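Per the labels, 182 single-cell libraries were deposited with 1 table of values. The deposited values are a signal per gene and cell, normalized by the authors; the unit before normalization and the gene filter are unknown. Per the submitters' processing notes, TopHat2 2.0, Cufflinks 2.2, Cuffdiff and mm10 were used. Of 17035 rows, the second of a repeated symbol was dropped. Values are not counts, so no count model was used.

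Values were transformed as log2(value + 1) with Python 3.11.15, numpy 2.4.6, pandas 2.3.3 and scipy 1.17.1; figures used matplotlib 3.10.9. Relations are Spearman's rho over cells. Scores are mean z-scores over genes detected in at least 10% of cells, zone scores leaving out the 9 genes. Differences are of mean log2(value + 1), called past 0.5 in both sets; relations are called past 0.2 in both. Isotype was the constant gene with over 50% of a heavy chain sum of at least 10. With 1 biological sample there is no test and no p-value. The code was tested on simulated data.

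The 9 genes, the lists and the sizes 0.2 and 0.5 were chosen with earlier results of these data known; the classes by Cd83 and Cxcr4 and their alternatives were added after seeing the data. Genes named are the 9, those on the pathway, heavy chain and zone lists, and for each of the 9 the 3 most similar; markers serve as checks. Some genes of these lists are not reported here. Alternatives were another detection value or floor, pseudocounts of 0.1 and 10, no filter, stricter isotype, each set alone and cells left out.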

Additional observations from a re-analysis of the deposited data

How the results depend on the processing

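Each of the 9 genes kept a share over 50% above its floor, without cell 122 and in cells with no marker of another cell type. Of the 9 shares, 8 moved outside their interval at a value of at least 5, 5 above the floor, 2 in set 1, 3 in set 2 and 2 in marker-free cells. The mean rho over the 36 pairs was 0.06 and ranged from 0.03 to 0.09 over its alternatives. The rho of kinase with brake scores, 0.15, was 0.042 with cells ranked within sets and genes above the floor taken out. The rho of the score of the 9 genes with the zone difference, 0.02, was 0.17 in set 1 and -0.11 in set 2, and the switched minus IgM difference, -0.19, was -0.44 in set 1 and 0.088 in set 2; neither has a direction shared by the sets, and the cause was not tested. The Cd83-only minus Cxcr4-only difference of the brakes, 1.98, was 1.51 with a pseudocount of 10, 1.32 with the markers called at a value of at least 5, 1.76 in set 2 and 1.70 in cells with no marker of another cell type, and stayed positive in every alternative run. That of the kinases, 0.17, was -0.14 with the markers called at 5, -0.11 in set 2 and -0.093 with set, genes above the floor and cell cycle as terms, so it has no fixed direction. No paired analysis was possible because the cells are not paired by any label. Depth per cell is unknown, the cells count as 1 sample, and values close to the floor limit what can be said of Lyn, Btk and Plcg2.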
